A study of Macaca mulatta with 9 samples.

Results

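The genes described here are 40 proliferation genes, which act in copying DNA and in dividing the cell. They were chosen by name as known genes of the cell cycle, and all 40 are among the 24371 genes of the deposited table. RNA from whole blood was sequenced for 9 rhesus macaques (Macaca mulatta), labelled wild type and assigned at random to 3 groups of 3. The ABPC_EV animals were injected with extracellular vesicles from antler blastema progenitor cells. The FBMSC_EV animals were injected with vesicles from cells the labels call FBMSC, an abbreviation that they do not expand. The PBS animals were injected with the vehicle, and their sample descriptions read Old. The labels give no dose, time after injection or age in years, and the 9 libraries come from 9 animals, which makes the replicates biological.

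A cell that divides switches on these genes in order. Licensing proteins load the replicative helicase onto DNA, cyclins with their kinases start DNA synthesis, and a later set of kinases, checkpoint proteins and motor proteins sorts the chromosomes. Most cells in blood are mature and do not divide, so their transcripts are known to be scarce there, and those present come mainly from activated lymphocytes and immature blood cells. Roles are given below as known in human cells.

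The deposited values are log2 of a value per 1000000 to which 0.5 had been added. Undone, the values behave like TPM, which is per length of the gene, and they are called TPM here although the labels do not name the unit. By group mean, 20 of the 40 genes reached 1 TPM in ABPC_EV blood, 13 in FBMSC_EV blood and 8 in PBS blood. Over all 24371 genes the counts were 11453 (47.0%) in ABPC_EV blood, 9298 (38.2%) in FBMSC_EV blood and 7044 (28.9%) in PBS blood. By library, 20, 23 and 25 of the 40 reached that level in ABPC_EV animals, 10, 17 and 12 in FBMSC_EV animals, and 3, 7 and 10 in PBS animals. The ABPC_EV libraries were thus all above the others, while FBMSC_EV replicate 1 equalled PBS replicate 3. In every library of the group, 18 reached it in ABPC_EV blood, 9 in FBMSC_EV blood and 3 in PBS blood. Without PBS replicate 3, the number that reached it by the PBS group mean was 4.

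The roles differed in how many members reached that level. Of 10 genes of replication licensing and the fork, 8 reached it by group mean in ABPC_EV blood, 6 in FBMSC_EV blood and 5 in PBS blood. Of 12 genes of entry into and control of mitosis, 3 did in ABPC_EV blood, 1 in FBMSC_EV blood and 0 in PBS blood. Nucleotide supply and maintenance methylation (4 genes) had 3, 2 and 1, the cyclins, kinases and factors of G1/S (5 genes) likewise had 3, 2 and 1, and the spindle, kinetochore and chromosome genes (9 genes) had 3, 2 and 1 in ABPC_EV, FBMSC_EV and PBS blood, in that order.

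A TPM value depends on how much of the library other transcripts take. HBB, HBA and HBA1, which encode the globin chains of red cells, took 76.2 ± 5.82% of the total in ABPC_EV blood, 84.2 ± 3.01% in FBMSC_EV blood and 89.7 ± 2.57% in PBS blood (SD, n = 3 each). The median-ratio size factor of a library, the median over 13350 genes of the gene's value relative to its geometric mean, was 1.52, 2.17 and 2.52 in ABPC_EV animals, 0.985, 1.21 and 0.957 in FBMSC_EV animals, and 0.330, 0.470 and 0.767 in PBS animals. The reads that could be recovered from the values also differed in number. They leave out 12 abundant genes, the globins among them, and so do not give the sequencing depth. They also leave out 2820 genes above 0 in 1 library only. They came to 6108793 to 7484287 in ABPC_EV libraries, 4813706 to 5926754 in FBMSC_EV libraries and 2454704 to 3770595 in PBS libraries. In whole blood, fewer cells of a type and less RNA per cell cannot be told apart. Markers of T, NK, B and plasma cells, monocytes, neutrophils and platelets were present in these libraries. The deposited table holds no gene that is at 0 in every library, so a marker absent from this blood could not be seen as 0. TRAT1, FCGR3A and PF4, which were also listed, are not in the table.

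After each library was divided by its size factor, the number of genes reaching 1 came out closer. By group mean it was 15 of 40 in ABPC_EV blood, 12 in FBMSC_EV blood and 12 in PBS blood, beside 9292, 9162 and 9150 of all genes in ABPC_EV, FBMSC_EV and PBS blood. The summed level of the 40 genes as deposited was 72.0, 124 and 132 TPM in ABPC_EV animals, 39.1, 66.7 and 50.8 in FBMSC_EV animals, and 15.7, 22.6 and 40.1 in PBS animals. Here all ABPC_EV animals lay above all others, and FBMSC_EV replicate 1 fell inside the PBS range. After scaling the sum was 47.3, 57.2 and 52.5 in ABPC_EV animals, 39.7, 55.3 and 53.1 in FBMSC_EV animals, and 47.6, 48.2 and 52.3 in PBS animals. Scaled, the 3 groups overlapped, and the lowest of the 9 libraries was FBMSC_EV replicate 1. The ratio of the ABPC_EV mean to the PBS mean was 4.18 as deposited and 1.06 after scaling, and that of FBMSC_EV to PBS was 2.0 as deposited and 1.0 after scaling.

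**Figure D1:**
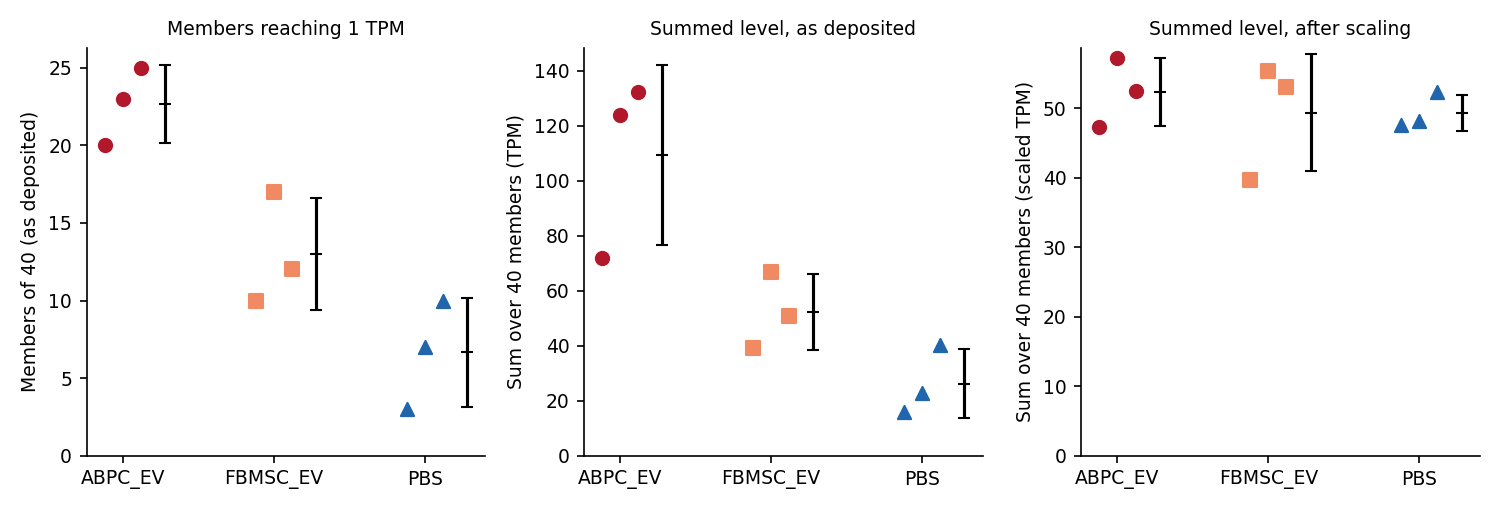
Each point is 1 library and the bars give the mean and SD of 3 animals. Left, the number of the 40 proliferation genes at 1 TPM or more as deposited; middle, their summed level in TPM as deposited; right, the same sum after median-ratio scaling. The ABPC_EV libraries stand highest in the left and middle panels (20 to 25 genes; 72.0 to 132 TPM), while in the right panel all 9 libraries lie between 39.7 and 57.2.

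Tests were run on log2(scaled value + 1) with limma over the 9245 genes whose mean scaled value was at least 1, with p-values adjusted over all of them. Of the 40 genes, 13 entered: PCNA, STMN1, MCM3, MCM4, MCM5, MCM6, MCM7, RRM1, CDK2, MKI67, CCNA2, CCNB1 and E2F1. The other 27 had mean scaled values from 0.132 upward and below 1, and fold changes are damped on this scale for genes this low. Of the 13, 0 passed an adjusted p of 0.05 for ABPC_EV over PBS, beside 0% of all genes tested, 0 for FBMSC_EV over PBS, beside 0%, and 0 for ABPC_EV over FBMSC_EV, beside 0%. At an unadjusted limma p under 0.05, 0 of the 13 passed in each comparison, while 978 (10.6%), 448 (4.85%) and 512 (5.54%) of all genes passed for ABPC_EV over PBS, FBMSC_EV over PBS and ABPC_EV over FBMSC_EV. The median log2 fold change of the 13 was 0.05 for ABPC_EV over PBS, where the median of all genes was -0.03. For FBMSC_EV over PBS it was 0.04, against 0.01 over all genes, and for ABPC_EV over FBMSC_EV 0.09, against -0.04. Without PBS replicate 3, limma called 182 genes for ABPC_EV over PBS, of which 0 were members. With erythroid genes removed and the rest rescaled, in place of median-ratio scaling, the member median for ABPC_EV over PBS was 0.58, against 0.56 over all genes, and 0 members passed. The first pair of comparisons share the PBS animals and are not independent. With 3 animals against 3, an exact permutation test of a single gene cannot go below a two-sided p of 0.1.

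Among the replication genes, PCNA, the sliding clamp that holds polymerases on DNA, had the highest level of the 40. Its scaled level in TPM was 8.79, 9.85 and 9.50 in ABPC_EV animals, 9.98, 12.1 and 9.74 in FBMSC_EV animals, and 12.1, 9.30 and 8.54 in PBS animals. The groups overlapped, with the highest values in FBMSC_EV replicate 2 and PBS replicate 1. The log2 fold change was -0.07 (95% interval -0.49 to 0.35) for ABPC_EV over PBS and 0.09 (-0.33 to 0.50) for FBMSC_EV over PBS.

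MCM2 to MCM7 form the ring of the replicative helicase. MCM6 had scaled levels of 4.30, 3.12 and 2.58 in ABPC_EV animals, 2.20, 3.46 and 4.47 in FBMSC_EV animals, and 1.52, 2.36 and 3.31 in PBS animals, so that the lowest value was in PBS replicate 1 while the ranges overlapped. Its log2 fold change was 0.36 (-0.22 to 0.95) for ABPC_EV over PBS and 0.36 (-0.22 to 0.95) for FBMSC_EV over PBS, with limma's adjusted p at 0.684 and 0.998. MCM5 had 2.43, 3.56 and 3.06 in ABPC_EV animals, 1.40, 2.47 and 2.44 in FBMSC_EV animals, and 1.63, 3.65 and 4.57 in PBS animals. PBS animals spanned nearly the whole range of the 9 libraries, and the log2 fold change was -0.41 (-1.04 to 0.21) for FBMSC_EV over PBS and 0.38 (-0.25 to 1.01) for ABPC_EV over FBMSC_EV.

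MCM7 had scaled levels of 2.80, 4.52 and 3.27 in ABPC_EV animals, 2.39, 3.54 and 3.10 in FBMSC_EV animals, and 3.82, 3.84 and 3.34 in PBS animals. MCM3 had 1.65, 2.44 and 1.76 in ABPC_EV animals, 1.63, 2.04 and 2.95 in FBMSC_EV animals, and 1.52, 2.53 and 2.08 in PBS animals. MCM4 had 1.36, 1.33 and 1.43 in ABPC_EV animals, 0.661, 1.22 and 1.64 in FBMSC_EV animals, and 0.831, 1.35 and 0.732 in PBS animals. The groups overlapped for all 3 genes. For ABPC_EV over PBS the log2 fold change was -0.06 (-0.47 to 0.35) for MCM7, -0.04 (-0.50 to 0.42) for MCM3 and 0.28 (-0.20 to 0.76) for MCM4. MCM2, with a mean scaled level below 1, stayed between 0.485 in PBS replicate 1 and 1.19 in FBMSC_EV replicate 2.

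Of the nucleotide supply genes, RRM1, the large subunit of ribonucleotide reductase, which makes the building blocks of DNA, was the member with enough signal to test. Its scaled level was 2.61, 3.18 and 3.47 in ABPC_EV animals, 2.02, 2.94 and 3.68 in FBMSC_EV animals, and 1.94, 2.14 and 4.38 in PBS animals, where PBS replicate 3 held the highest and PBS replicate 1 the lowest value. The log2 fold change was 0.15 (-0.42 to 0.72) for ABPC_EV over PBS. RRM2, its small subunit, had 0.843, 0.959 and 0.811 in ABPC_EV animals, 1.15, 1.25 and 1.23 in FBMSC_EV animals, and 0.541, 0.692 and 0.870 in PBS animals. All FBMSC_EV animals thus lay above all ABPC_EV and all PBS animals for this gene.

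CDK2 is the kinase that cyclins E and A use to start and sustain DNA synthesis. It had scaled levels of 2.72, 2.68 and 3.82 in ABPC_EV animals, 2.27, 2.56 and 2.53 in FBMSC_EV animals, and 1.57, 2.13 and 2.85 in PBS animals. The ABPC_EV animals lay above all FBMSC_EV animals, by a narrow gap, and overlapped with PBS replicate 3. The log2 fold change was 0.36 (-0.06 to 0.78) for ABPC_EV over PBS, whose unadjusted limma p of 0.0820 was the smallest of any member there (adjusted p 0.551), and 0.23 (-0.19 to 0.65) for ABPC_EV over FBMSC_EV, with an exact permutation p of 0.1.

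CCNA2, the cyclin A of S phase and early mitosis, had 1.58, 0.915 and 1.68 in ABPC_EV animals, 0.715, 1.41 and 0.703 in FBMSC_EV animals, and 0.544, 0.868 and 1.85 in PBS animals. E2F1, a transcription factor that switches on S-phase genes, had 0.864, 2.51 and 0.467 in ABPC_EV animals, 0.444, 1.08 and 1.03 in FBMSC_EV animals, and 0.641, 1.16 and 1.13 in PBS animals. Within-group spread was wide for both, and the E2F1 extremes of the ABPC_EV group enclosed those of the PBS group. For ABPC_EV over PBS the log2 fold change was 0.23 (-0.37 to 0.83) for CCNA2 and 0.12 (-0.60 to 0.83) for E2F1.

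Among the genes of mitosis and chromosomes, CCNB1, the cyclin B that drives entry into mitosis, and MKI67, which encodes the proliferation antigen Ki-67 that coats mitotic chromosomes, were tested. CCNB1 had 0.958, 1.43 and 1.05 in ABPC_EV animals, 1.18, 0.974 and 0.866 in FBMSC_EV animals, and 1.21, 1.33 and 0.933 in PBS animals. MKI67 had 0.825, 1.37 and 1.42 in ABPC_EV animals, 0.880, 1.72 and 1.02 in FBMSC_EV animals, and 1.58, 0.904 and 0.927 in PBS animals. Each group held low and high animals for both genes. For MKI67 the log2 fold change was 0.05 (-0.45 to 0.54) for ABPC_EV over PBS and 0.04 (-0.45 to 0.54) for FBMSC_EV over PBS, and for CCNB1 it was -0.01 (-0.41 to 0.39) and -0.10 (-0.50 to 0.29).

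STMN1, which encodes stathmin, a protein that takes microtubules apart, had the second-highest level. It was 4.84, 6.87 and 6.69 in ABPC_EV animals, 5.43, 6.60 and 5.22 in FBMSC_EV animals, and 6.97, 6.20 and 5.34 in PBS animals. The lowest of the 9 values was in ABPC_EV replicate 1 and the highest in PBS replicate 1. The log2 fold change was -0.01 (-0.42 to 0.40) for ABPC_EV over PBS and -0.09 (-0.50 to 0.32) for FBMSC_EV over PBS. PCNA and STMN1 together held 29.6 ± 1.09% of the summed level of the 40 genes in ABPC_EV blood, 33.6 ± 5.33% in FBMSC_EV blood and 32.9 ± 6.80% in PBS blood.

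**Figure D2:**
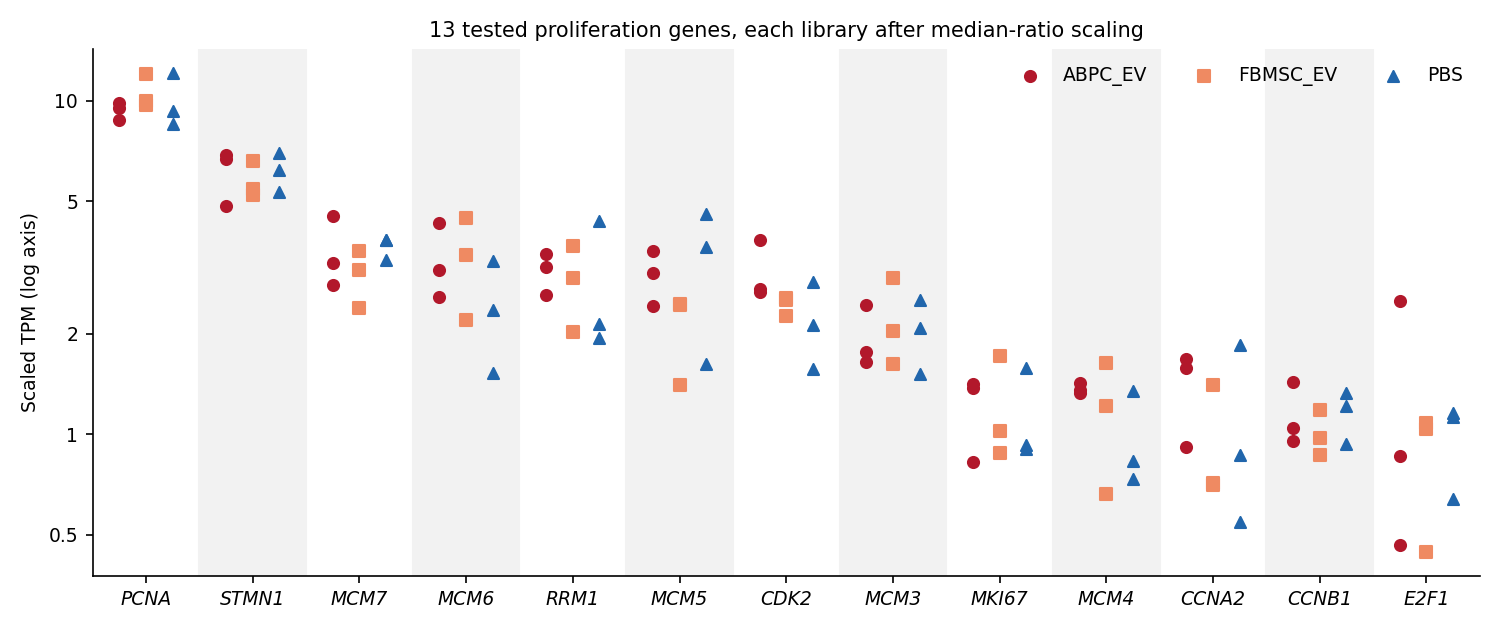
Scaled level in TPM (log axis) of the 13 tested proliferation genes, 1 point per library, with ABPC_EV, FBMSC_EV and PBS from left to right within each gene. The genes run from about 10 for PCNA down to about 1 for E2F1, and the groups overlap in every gene except CDK2, whose ABPC_EV values (2.68 to 3.82) lie above the FBMSC_EV values (2.27 to 2.56).

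Across the 13, no estimate had a 95% interval that left out 0. The widest bounds were -0.66 and 0.95 for ABPC_EV over PBS, -1.04 and 0.95 for FBMSC_EV over PBS, and -0.59 and 1.01 for ABPC_EV over FBMSC_EV. Fold changes of log2(scaled value + 1) are damped for tested genes near 1 as well. On recovered reads the E2F1 interval was -1.49 to 1.38 for ABPC_EV over PBS and -1.86 to 1.25 for FBMSC_EV over PBS. Changes above 1 on the log2 scale in a low gene such as E2F1 thus lie within what these animals allow. After scaling, 7, 7 and 11 of the 13 had a fold change above 0 for ABPC_EV over PBS, FBMSC_EV over PBS and ABPC_EV over FBMSC_EV, beside 46.7%, 51.9% and 44.3% of all genes tested. For ABPC_EV over FBMSC_EV the number was 8 of 14 without FBMSC_EV replicate 1 and 12 of 14 without FBMSC_EV replicate 2. E2F1 had a group mean above 1 only in ABPC_EV blood (1.28, with 2.51 in replicate 2), against 0.853 in FBMSC_EV and 0.976 in PBS blood. The animals of a group differed in how many of the 13 were highest or lowest in them. In the ABPC_EV group, replicate 1 was the lowest library for 8 of the 13 and replicate 2 the highest for 7. In the FBMSC_EV group replicate 1 was the lowest for 9 and replicate 2 the highest for 8, while in the PBS group replicate 1 was the lowest for 7 and the highest for 3, and replicate 3 the lowest for 5 and the highest for 5. These counts were not set against all genes.

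The same fit on the values as deposited gave another picture for ABPC_EV. There, 16 of 16 tested members were called higher in ABPC_EV than in PBS blood, with a median log2 fold change of 1.32, beside 91.9% of all 9879 genes tested called higher and an all-gene median of 1.45. The members were thus called at about the background rate. This fit kept genes whose unscaled mean was at least 1, which let in AURKB, PLK1 and RRM2, not tested after scaling. AURKB and PLK1 had group means above 1 only in ABPC_EV blood (2.58 and 2.25). RRM2 had 1.80 in ABPC_EV, 1.27 in FBMSC_EV and 0.390 in PBS blood. These genes entered through the groups where they were high, so their calls add no support. For FBMSC_EV over PBS as deposited, 0 of 16 were called, beside 0.344% of all genes, and the median was 0.55, against 0.73 over all genes. For ABPC_EV over FBMSC_EV, 0 of 16 were called, beside 0.749%, with a median of 0.84 against 0.73.

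As an example, PCNA stood at 13.4, 21.3 and 23.9 TPM as deposited in ABPC_EV animals, 9.84, 14.5 and 9.33 in FBMSC_EV animals, and 4.0, 4.37 and 6.55 in PBS animals. On this scale both vesicle groups lay above all PBS animals and overlapped each other. MKI67 stood at 1.26, 2.98 and 3.58 in ABPC_EV animals, 0.867, 2.07 and 0.980 in FBMSC_EV animals, and 0.522, 0.425 and 0.711 in PBS animals. Again the vesicle groups lay above all PBS animals and overlapped each other. In all, 35 of the 40 had every ABPC_EV animal above every PBS animal as deposited, beside 53.2% of all genes of the table. For FBMSC_EV over PBS the count was 16 of 40, beside 28.2%, and for ABPC_EV over FBMSC_EV 13 of 40, beside 31.2%. These shares cover genes of any level, with 2820 that were above 0 in 1 library only and could not stand apart. By the limma fit as deposited, a different measure, 91.9% of the 9879 genes tested were called higher for ABPC_EV over PBS.

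**Figure D3:**
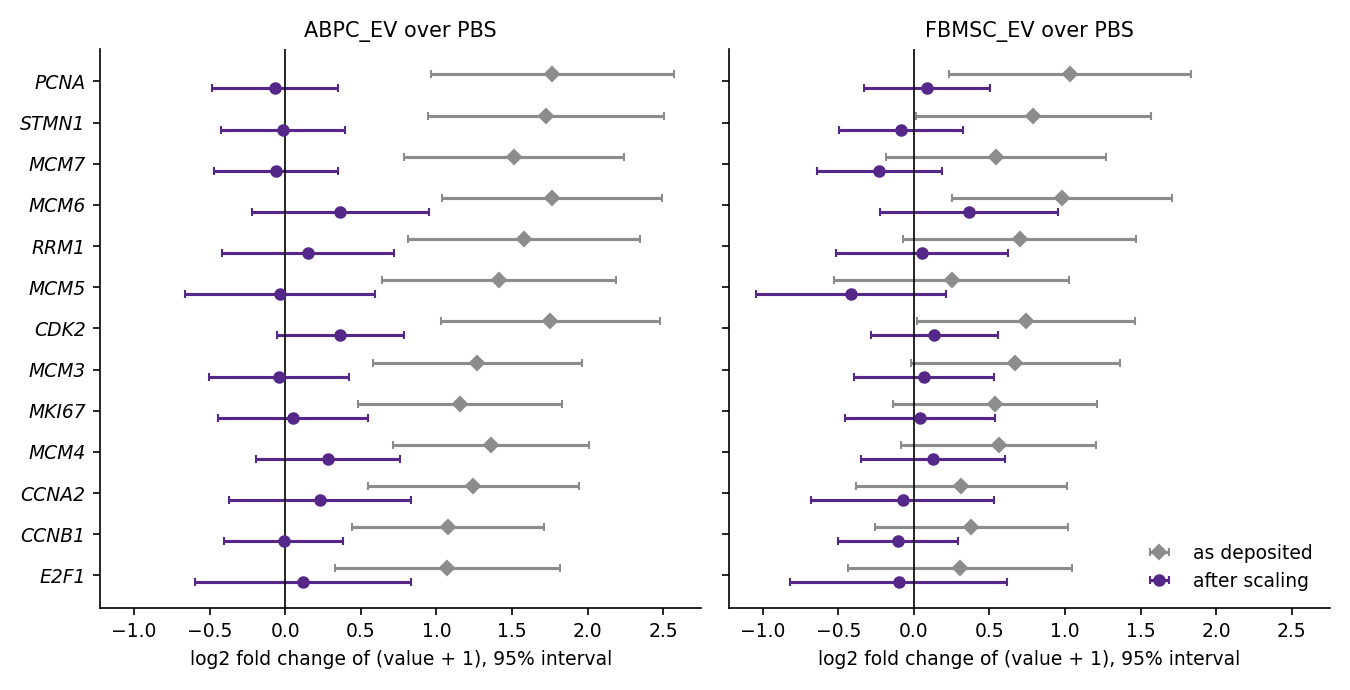
Log2 fold changes with 95% intervals of the 13 tested genes, from the values as deposited (grey diamonds) and after median-ratio scaling (purple circles), for ABPC_EV over PBS (left) and FBMSC_EV over PBS (right). In the left panel the grey intervals lie above 0 and the purple intervals include 0.

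All 40 genes could be described on recovered reads, since each had at least 5 reads on average over the 9 libraries. Members together had 987 to 4650 reads a library, 19 had fewer than 10 reads in at least 1 library, and 2 (PCNA and MKI67) had 100 or more in every library. CDK1, BUB1 and FOXM1 had 0 reads in PBS replicate 1, the library with the fewest recovered reads, where a count of 0 allows up to 3 reads. After the same scaling, limma-voom called 0 of the 40 in each comparison, beside 0.049% of 14281 genes for ABPC_EV over PBS (7 genes, all lower), 0% for FBMSC_EV over PBS and 0% for ABPC_EV over FBMSC_EV. At an unadjusted p under 0.05, limma gave 1, 3 and 2 of 40 (2.5%, 7.5% and 5%), beside 8.05%, 3.63% and 5.72% of all genes in those comparisons. The median log2 fold changes of the 40 were 0.16, 0.12 and 0.06, beside 0.02, 0.02 and 0.01 over all genes.

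BUB1, a kinase of the checkpoint that holds cells until every chromosome is attached, had the lowest p of the 40. It had 23, 21 and 25 reads in ABPC_EV animals, 13, 15 and 11 in FBMSC_EV animals, and 0, 1 and 7 in PBS animals. Scaled, its level was 0.269, 0.255 and 0.235 in ABPC_EV animals, 0.226, 0.215 and 0.182 in FBMSC_EV animals, and 0, 0.0273 and 0.150 in PBS animals. The PBS animals thus lay below both vesicle groups, at a few reads. Between the vesicle groups the gap was narrow (0.235 against 0.226). The log2 fold change on reads for ABPC_EV over FBMSC_EV was 0.26 (-0.77 to 1.28). The log2 fold change on reads was 2.13 (0.36 to 3.89) for ABPC_EV over PBS and 1.87 (0.04 to 3.70) for FBMSC_EV over PBS, with limma's adjusted p at 0.508 and 0.999. Neither passed.

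Other members at an unadjusted limma p under 0.05 were of mixed direction. RRM2 had a log2 fold change of 0.74 (0.04 to 1.44) for FBMSC_EV over PBS, and CDT1, which helps load the helicase, had -1.39 (-2.75 to -0.02). CDT1 had 5, 27 and 11 reads in FBMSC_EV animals and 19, 16 and 21 in PBS animals. For ABPC_EV over FBMSC_EV, PLK1, a kinase of mitotic entry and spindle assembly, had 0.80 (0.07 to 1.52) and AURKB, a kinase that corrects chromosome attachment, had 1.02 (0.02 to 2.02). The reads of PLK1 were 115, 117 and 193 in ABPC_EV animals and 76, 54 and 40 in FBMSC_EV animals, and those of AURKB were 57, 84 and 92 in ABPC_EV animals and 23, 17 and 44 in FBMSC_EV animals. Totals of recovered reads were higher in the ABPC_EV animals, and after scaling AURKB overlapped between these groups while PLK1 did not. The adjusted limma p-values of these 4 were 0.862 or higher.

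For the remaining mitotic genes the reads set wide intervals. AURKA, a kinase of the spindle poles, had 5, 24 and 29 reads in ABPC_EV animals, 5, 48 and 24 in FBMSC_EV animals, and 12, 10 and 33 in PBS animals. Its log2 fold change for ABPC_EV over PBS was -1.44 (-3.25 to 0.38), the lowest of the 40. FOXM1, a transcription factor for mitotic genes, had 27, 30 and 35 reads in ABPC_EV animals, 8, 23 and 17 in FBMSC_EV animals, and 0, 6 and 11 in PBS animals, and a log2 fold change of 1.55 (-0.21 to 3.32) for ABPC_EV over PBS. CDK1, the kinase that cyclin B activates, had 1.22 (-0.76 to 3.21). AURKA overlapped between all groups, whereas FOXM1 was higher in every ABPC_EV than in every PBS animal after scaling.

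The 9 spindle, kinetochore and chromosome genes had a narrower range of fold changes than the 12 genes of entry into and control of mitosis, though not a median nearer to 0. For ABPC_EV over PBS, their log2 fold changes on reads ran from -0.35 for CENPE, a kinetochore motor, to 0.46 for NUSAP1, a microtubule-binding protein of the spindle. The median of the 9 was 0.18, and that of the 12 was 0.07. No test compared the roles. TOP2A, the topoisomerase that untangles replicated chromosomes, had 73, 67 and 64 reads in ABPC_EV animals, 31, 61 and 83 in FBMSC_EV animals, and 12, 23 and 36 in PBS animals, and a log2 fold change of 0.18 (-0.77 to 1.13) for ABPC_EV over PBS. Its scaled levels overlapped between the groups. For FBMSC_EV over PBS the 9 ran from -0.64 for KIF11, the motor that pushes spindle poles apart, to 0.56 for NUSAP1.

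**Figure D4:**
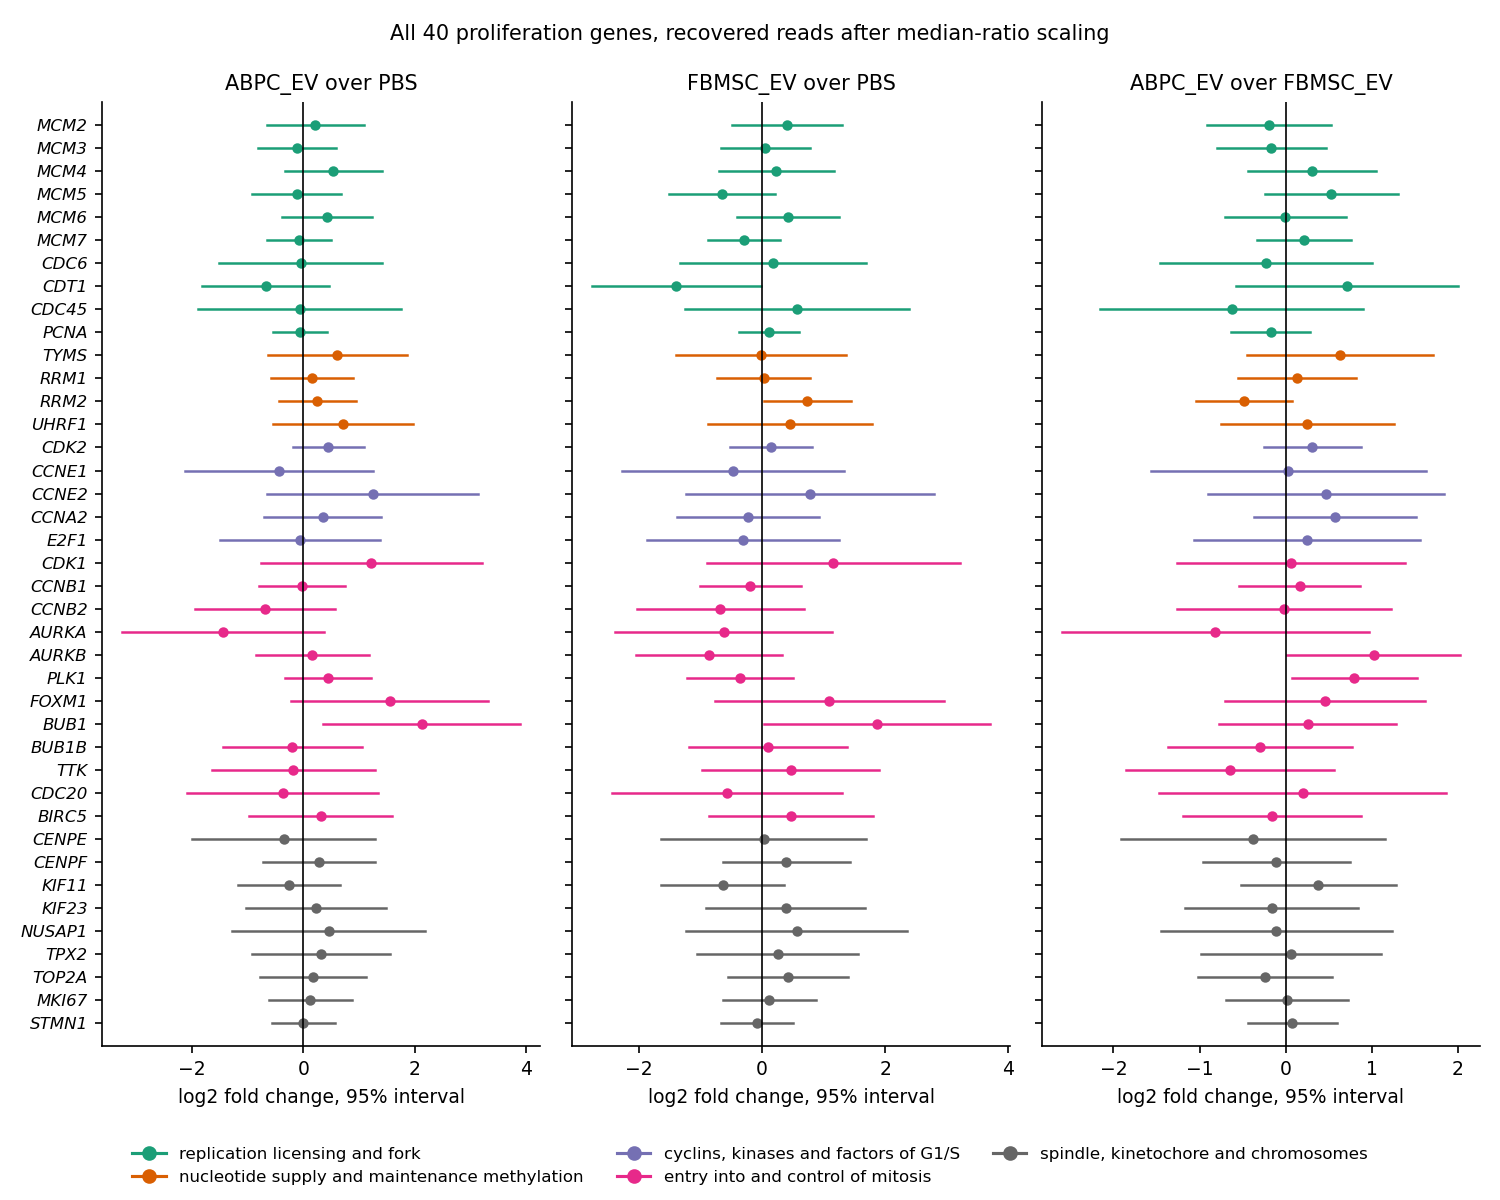
Log2 fold change with its 95% interval of each of the 40 proliferation genes, from recovered reads after median-ratio scaling, in 3 panels (ABPC_EV over PBS, FBMSC_EV over PBS, ABPC_EV over FBMSC_EV) with colours for roles. Most intervals include 0; BUB1 lies farthest to the right (2.13) and AURKA farthest to the left (-1.44) in the first panel, and the scale differs between panels.

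By overlap of scaled values, BUB1, FOXM1, TYMS, which makes the thymidine nucleotide, and UHRF1, which guides maintenance DNA methylation, had every ABPC_EV animal above every PBS animal. That is 4 of 40, beside 6.31% of all genes of the table, and 0 of 40 had every ABPC_EV animal below, beside 4.36%. For FBMSC_EV over PBS, BUB1 and RRM2 were above (2 of 40, beside 4.16%) and CDT1 and KIF11 below (2 of 40, beside 3.27%). For ABPC_EV over FBMSC_EV, BUB1, CDK2 and PLK1 were above (3 of 40, beside 4.42%) and RRM2 below (1 of 40, beside 4.19%). The shares of all genes again include the 2820 that were above 0 in 1 library only and could not stand apart.

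The share of each role in the summed level was computed for each library, with no test between groups. Replication licensing and fork genes held 46.4 ± 2.33% in ABPC_EV blood, 48.9 ± 0.17% in FBMSC_EV blood and 49.2 ± 2.90% in PBS blood. The G1/S genes held 12.97, 11.1 and 13.1% in ABPC_EV animals, 9.52, 10.01 and 9.36% in FBMSC_EV animals, and 6.43, 9.29 and 12.4% in PBS animals. For these genes the ABPC_EV animals lay above all FBMSC_EV animals and overlapped with PBS animals. Genes of entry into and control of mitosis held 11.2 ± 0.812% in ABPC_EV blood, 10.3 ± 1.08% in FBMSC_EV blood and 11 ± 0.916% in PBS blood (SD, n = 3 each). Nucleotide supply and maintenance methylation genes held 9.95 ± 0.577% in ABPC_EV blood, 10.1 ± 0.230% in FBMSC_EV blood and 8.58 ± 2.52% in PBS blood. The spindle, kinetochore and chromosome genes held 19.3, 19.7 and 21.1% in ABPC_EV animals, 20.8, 21.7 and 20.7% in FBMSC_EV animals, and 27.0, 20 and 18.5% in PBS animals, so that the highest and the lowest share were both in the PBS group.

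**Figure D5:**
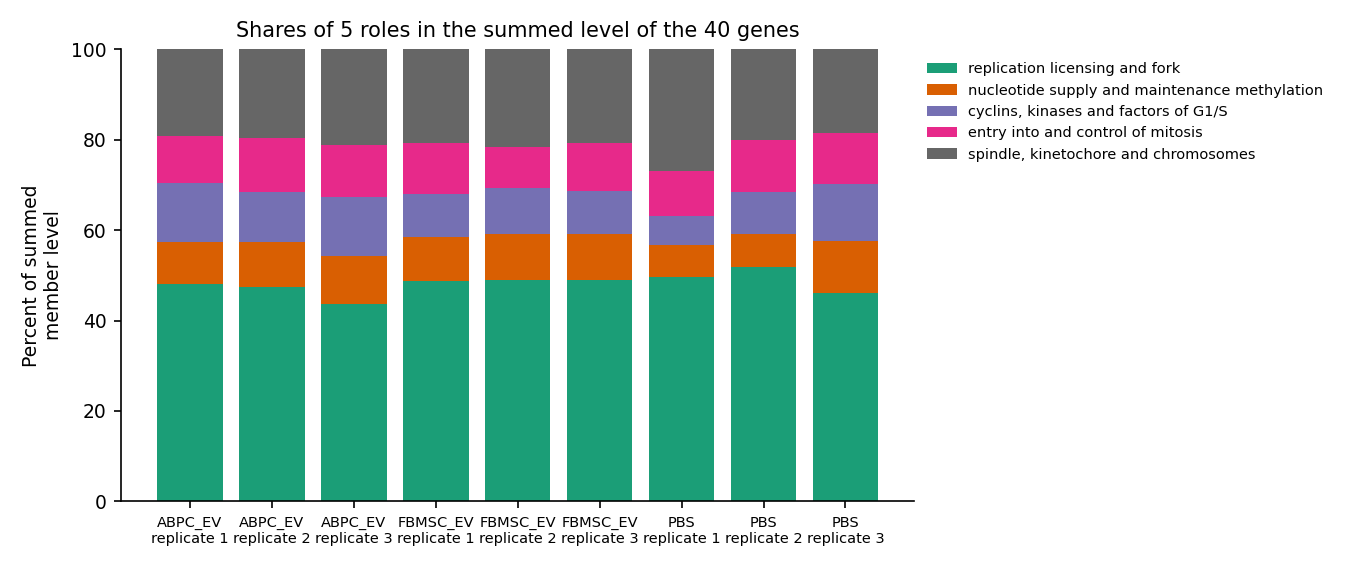
Percent of the summed level in TPM of the 40 proliferation genes held by each of 5 roles, 1 bar per library. Replication licensing and fork genes hold 43.7 to 51.9% in all 9 libraries, and PBS replicate 1 stands out by its share of spindle, kinetochore and chromosome genes (27.0%).

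Further genes of the same pathways, listed beside the 40, gave 0 calls after scaling in any comparison. Of 36 further replication genes, 13 were tested, and 9 had a fold change above 0 for ABPC_EV over PBS, with a median of 0.10. RFC4, a subunit of the loader that places PCNA on DNA, had scaled levels of 1.94, 1.66 and 2.24 in ABPC_EV animals, 1.09, 1.58 and 1.93 in FBMSC_EV animals, and 0.645, 0.735 and 1.68 in PBS animals. Its log2 fold change was 0.58 (0.07 to 1.08) for ABPC_EV over PBS, with a limma adjusted p of 0.398. DNMT1, the maintenance DNA methyltransferase, had 4.34, 4.85 and 6.18 in ABPC_EV animals, 3.16, 6.29 and 4.61 in FBMSC_EV animals, and 3.92, 3.06 and 3.4 in PBS animals. All ABPC_EV animals lay above all PBS animals for DNMT1, and its log2 fold change was 0.45 (-0.04 to 0.94), with a limma adjusted p of 0.522. For FBMSC_EV over PBS, RFC4 had 0.35 and RPA2, a subunit of the protein that coats single-stranded DNA, 0.27, and for ABPC_EV over FBMSC_EV, RFC4 had 0.23 and DUT, which clears dUTP, -0.21.

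Of 60 further mitotic genes, 10 were tested, 5 above and 5 below 0 in each comparison. CKS1B, a small partner of cyclin-dependent kinases, had 2.23, 1.61 and 1.36 in ABPC_EV animals, 1.42, 2.55 and 2.10 in FBMSC_EV animals, and 2.35, 2.55 and 2.91 in PBS animals. It was lower in every ABPC_EV than in every PBS animal, with a log2 fold change of -0.41 (-0.84 to 0.02) and a limma adjusted p of 0.490. UBE2S, a ubiquitin-conjugating enzyme of mitotic exit, had -0.35 for ABPC_EV over PBS and -0.30 for FBMSC_EV over PBS, where CKS1B had -0.27. For ABPC_EV over FBMSC_EV, TACC3, a spindle protein, had -0.55 and CKS2, the close relative of CKS1B, -0.35.

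The G1 cyclin, RB and E2F list had 23 genes, of which 15 were tested, with medians of -0.03, -0.14 and -0.03 for ABPC_EV over PBS, FBMSC_EV over PBS and ABPC_EV over FBMSC_EV. TFDP2, a dimer partner of E2F factors, had scaled levels of 17.3, 5.23 and 12.0 in ABPC_EV animals, 42.3, 23.8 and 37.9 in FBMSC_EV animals, and 61.4, 60.1 and 39.9 in PBS animals. The ABPC_EV animals were below all others, and the log2 fold change was -2.24 (-3.14 to -1.34) over PBS, with a limma adjusted p of 0.0964, and -1.61 (-2.50 to -0.71) over FBMSC_EV, with an adjusted p of 0.831. Without PBS replicate 3 the fold change over PBS was -2.44 and passed the threshold, in a fit that called 177 genes lower and 5 higher. E2F2, of the same family as E2F1, had 4.40, 3.41 and 10.2 in ABPC_EV animals, 9.70, 10.7 and 14.3 in FBMSC_EV animals, and 18.9, 13.7 and 7.95 in PBS animals, with a log2 fold change of -1.10 (-1.96 to -0.24) for ABPC_EV over PBS and an adjusted p of 0.331. E2F3 had 0.49 (-0.01 to 0.98) for FBMSC_EV over PBS.

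Erythroid markers, like TFDP2 and E2F2, had mostly negative fold changes, and 0 of them passed limma's adjusted p of 0.05 in any of the 3 comparisons. Of 20 listed, 18 were tested, and their median log2 fold change was -1.66 for ABPC_EV over PBS, -0.66 for FBMSC_EV over PBS and -1.04 for ABPC_EV over FBMSC_EV, with 17, 16 and 17 below 0. At an unadjusted limma p under 0.05, 14, 4 and 7 of the 18 were lower in those comparisons and 0 were higher. Of all genes tested, 10.6%, 4.85% and 5.54% passed there in either direction. The summed scaled level of the erythroid markers was 300034 to 544669 in ABPC_EV animals, 688204 to 918948 in FBMSC_EV animals, and 1154900 to 2816820 in PBS animals. Nearly all of this sum is HBB, HBA and HBA1, so it restates their percentages and the size factors given above. The part of red-cell RNA in these values was not tested.

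Of 13 inhibitors of cyclin-dependent kinases and antiproliferative genes, 9 were tested, with medians of -0.23, 0.03 and -0.10 in the same 3 comparisons. CDKN1C, the inhibitor p57, had scaled levels of 6.02, 9.45 and 7.44 in ABPC_EV animals, 3.22, 14.8 and 4.70 in FBMSC_EV animals, and 2.60, 1.44 and 2.83 in PBS animals. Both vesicle groups lay above all PBS animals, with log2 fold changes of 1.40 (0.44 to 2.36) for ABPC_EV and 1.16 (0.20 to 2.12) for FBMSC_EV, and limma adjusted p-values of 0.260 and 0.980. Neither passed, and without FBMSC_EV replicate 2, the highest of the 9 libraries, the FBMSC_EV fold change was 0.60. CDKN2D, another kinase inhibitor, had -0.52 for ABPC_EV over PBS, and TOB1, an antiproliferative protein, -0.48 for FBMSC_EV over PBS. CDKN1B, the inhibitor p27, had -0.26 and BTG1, a further antiproliferative gene, -0.31 for ABPC_EV over FBMSC_EV.

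Summed levels of markers of cells that could carry proliferation transcripts overlapped between groups in part. Gene by gene, 0 T, NK or B cell markers passed limma's adjusted p of 0.05 in any comparison, while directions were often shared within a list. The summed scaled level of 13 T cell markers was 177 to 376 in ABPC_EV animals, 115 to 271 in FBMSC_EV animals and 134 to 203 in PBS animals. Fold changes above 0 numbered 12, 8 and 12 of 13 for ABPC_EV over PBS, FBMSC_EV over PBS and ABPC_EV over FBMSC_EV. Their medians were 0.45, 0.20 and 0.38 on the log2 scale. NK and cytotoxic markers summed to 242 to 445 in ABPC_EV animals, 272 to 667 in FBMSC_EV animals and 137 to 419 in PBS animals, and B cell markers to 91.8 to 269, 86.5 to 235 and 190 to 376 in ABPC_EV, FBMSC_EV and PBS animals. In the same 3 comparisons, 10, 9 and 6 of 11 NK markers were above 0 (medians 0.65, 0.72 and 0.04). For B cell markers the numbers were 2, 0 and 10 of 10 (medians -0.51, -0.81 and 0.42). Of all genes tested, 46.7%, 51.9% and 44.3% were above 0. The part of these cells in the levels of the 40 genes was not tested. Stem and progenitor markers were low in every group, at 4.59 to 8.34 in ABPC_EV animals, 5.05 to 8.53 in FBMSC_EV animals and 3.8 to 9.37 in PBS animals. CRHBP, a gene of that list, was at 0 in all ABPC_EV and FBMSC_EV animals. It was above 0 in at least 1 PBS animal, within a list whose sum there was 9.37 at most. Markers of immature granule neutrophils summed to 55.6 to 165 in ABPC_EV animals, 71.4 to 352 in FBMSC_EV animals and 85.7 to 394 in PBS animals. Plasma cell markers summed to 72.2 to 80.2 in ABPC_EV animals, 54.7 to 68.4 in FBMSC_EV animals and 63.2 to 108 in PBS animals, and their part in the levels of the 40 genes was not tested.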

How the data were processed

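Whole-blood total RNA of 9 macaques was sequenced as paired reads from NEBNext Ultra libraries, per the labels' protocols. The build was Mmul_10, per the submitters' processing notes; aligner and counter: not given in the sources used here. Log2 values were deposited by the authors, read from the values themselves as log2 of a value per 1000000 plus 0.5. Undone, each library sums to that total. No coordinates are given.

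From these, median-ratio size factors were computed over genes above 0 in all 9 libraries. limma 3.58.1 (R 4.3.3) with a trend was fitted to log2(scaled value + 1) for genes with a mean scaled value of at least 1, over all 9 libraries with a term for group. Adjustment was by Benjamini-Hochberg over the genes tested (threshold 0.05). Whole reads were recovered by searching, per gene, for a divisor that makes its values whole in every library (tolerance 0.001); 21539 of 21551 genes (99.944%) came out whole, and of 300 genes with perturbed values 0 did. The 12 genes that did not, the globins among them, were left out of read totals and of the limma-voom fit. So were the 2820 genes above 0 in 1 library only, for which no search was made. Intervals from the fits are 95% intervals over animals, and the floor of a count of 0 (3 reads) covers counting error only.

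Named among the 40 were those with the smallest p in each direction or the highest mean, and from each other list its 2 genes with the smallest p in each comparison. E2F1, the remaining tested member, was named outside these rules. BUB1, RRM2, CDT1, PLK1, AURKB, AURKA, FOXM1, CDK1, TYMS, UHRF1, MCM2, CENPE, NUSAP1, KIF11 and TOP2A were named after their values were seen. The members and lists were chosen with earlier results of these data known. The fits were run on simulated reads with large changes planted in genes of higher level only. Smaller changes, and genes as low as most of the 40, were not covered by that simulation. Replicate numbers mark different animals and do not pair libraries. Alternatives were other scalings, filters and pseudocounts, fits on recovered reads, fits of 2 groups, and leaving out each library.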

Additional observations from a re-analysis of the deposited data

How the results depend on the processing

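The scaling decided most. With values as deposited, the genes called numbered 9085 for ABPC_EV over PBS, 34 for FBMSC_EV over PBS and 74 for ABPC_EV over FBMSC_EV, against 0 in each after scaling; 16 members were called in the first, and the member medians were 1.32, 0.55 and 0.84. Fold changes for ABPC_EV over PBS that were below 0 after scaling were called above 0 as deposited for PCNA (1.77), STMN1 (1.72), MCM7 (1.51), MCM5 (1.41), MCM3 (1.27), CCNB1 (1.08), CDKN2D (1.40), UBE2S (1.24) and CKS1B (0.93). With erythroid genes removed and the rest rescaled, the member median was 0.58 for ABPC_EV over PBS, beside an all-gene median of 0.56. It was 0.26 for FBMSC_EV over PBS, beside 0.31, and 0.37 for ABPC_EV over FBMSC_EV, beside 0.24. With this rescaling 0 members were called. Without a filter 4, 1 and 5 genes were called in the 3 comparisons, and limma-voom on genes with at least 5 reads, an alternative chosen after seeing the data, called 7 for ABPC_EV over PBS; none was a member. Leaving out 1 library at a time gave 0 to 182 genes called for ABPC_EV over PBS (182 without PBS replicate 3), 0 to 2 for FBMSC_EV over PBS and 0 to 0 for ABPC_EV over FBMSC_EV, 0 members in each, and member medians of -0.01 to 0.18, -0.10 to 0.09 and 0.03 to 0.19. The cause of the 182 was not tested. Treating the replicate number as a block called 1 gene for FBMSC_EV over PBS and changed no other call; the deviations of same-numbered libraries had correlations of -0.25 to 0.29. At a threshold of 0.5 TPM 35, 24 and 13 members reached it in ABPC_EV, FBMSC_EV and PBS blood, and at a threshold of 2 TPM 15, 8 and 2 did. Leaving out 1 library gave 20 to 25, 10 to 15 and 4 to 8 members at 1 TPM, with 4 without PBS replicate 3. Upper-quartile scaling, other pseudocounts and a filter on deposited values left 0 members called. Of the 40, 19 had fewer than 10 reads in at least 1 library, and none of these was among the 13 tested.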
